A study of Mus musculus with 6 samples.

Results

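The genes described here are the nuclear genes of the mitochondrial respiratory chain, complexes I to V with cytochrome c, in osteocytes, the cells embedded in bone matrix. They were taken by symbol from the array's annotation: every gene with a probe set of its own whose name starts with Ndufa, Ndufb, Ndufc, Ndufs, Ndufv, Sdh, Uqcr, Cox4 to Cox8 or Atp5, together with Cyc1 and Cycs and without the Ndufaf assembly factors. This gave 88 of the 18194 genes on the array, of which 36 fall in complex I, 8 in complex II, 9 in complex III, 17 in complex IV, 17 in complex V and 1 is cytochrome c. The level filter on dim genes left 85 of the 88, and Ndufb4, Cox7b2 and Cox4i2 stayed below it.

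RNA came from 3 control and 3 knockout samples of calvarial osteocytes, each measured on 1 Affymetrix array. Both groups are labelled as female C57/BL6 mice aged 10 to 12 days (the extraction protocol says 10 days) that carried Dmp1-GFP, a green fluorescent reporter under the promoter of the osteocyte gene Dmp1. The knockout mice carried ERαΔOcy/ΔOcy, the deletion of estrogen receptor alpha (Esr1) in osteocytes. The controls are labelled wild type littermates, while the protocol gives them as ERαflox/flox, and the sources used here give neither the Cre driver nor the Cre status of the controls. Sutures were removed, cells of fractions 4 to 6 of 6 digestions were pooled, and GFP-positive cells were sorted with a gate set to hold 10% to 15% of cells where the reporter was present and between 0.8% and 1.0% where it was absent. On pooling the labels differ, since the design text denies it and the protocol mentions pooled tissue, so p-values measure the spread between these samples, which may not be that between mice.

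The respiratory chain sits in the inner mitochondrial membrane. Complex I takes electrons from NADH and complex II takes them from succinate, both pass them to coenzyme Q, complex III passes them on to cytochrome c, and complex IV hands them to oxygen. Complexes I, III and IV pump protons, and complex V, the ATP synthase, uses the proton gradient to make ATP. Most subunits are encoded in the nucleus and a few in the mitochondrial genome. Complex IV has exchangeable subunits: Cox6a2, Cox7a1 and Cox8b are the forms found mainly in heart and skeletal muscle, and Cox6a1, Cox7a2 and Cox8a are the widely expressed ones. Estrogen receptor alpha is a ligand-activated transcription factor, and nuclear-encoded chain genes are classical targets of the transcription factors NRF1 and GABP and of the estrogen-related receptors, which are other proteins despite their name.

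Levels below are quantile-normalised log2(signal + 16), differences are knockout minus control on that scale with the standard error (SE) of the limma fit, and levels of different genes are not compared, since each probe set has its own response. Array medians of the deposited signal ran from 18.7 to 28.5. The osteocyte marker Dmp1, whose promoter drives the reporter used for sorting, was bright on all 6 arrays, at 12.41 to 12.97. Of 11 tested osteocyte markers 7 lay below control and 4 above, with a median of -0.09 and a range from -0.70 to 0.45. Esr1 differed by -0.20 ± 0.12 (limma adjusted p = 0.572) with overlapping groups. The sources used here do not say which part of Esr1 is deleted, so its probe set does not check the labels. Markers of other cells moved between the arrays: the 17 skeletal muscle markers, 14 of them above the level filter, had a summed signal from 238 to 40674 in controls and from 4882 to 22862 in knockouts. The 14 chondrocyte markers had a summed signal of 6140 to 8708 in controls and 9967 to 12588 in knockouts. In the same order the 11 pericyte and smooth muscle markers had 16055 to 25598 and 15532 to 18892. Osteoclast markers had 4081 to 5900 and 6514 to 7221, and leukocyte markers 2072 to 4317 and 3528 to 4259. These are sums of deposited signals. On the normalised scale 10 of 11 pericyte and smooth muscle markers lay below control (median -0.46). Above control lay 12 of 14 chondrocyte markers (median 1.33), 5 of 7 tested osteoclast markers (median 0.04) and 2 of 7 tested leukocyte markers (median -0.14). None of these markers was at 0 on any array, and the part of these cells in the results was not tested. In bulk samples such as these, fewer cells of a type and less RNA per cell cannot be told apart.

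No respiratory chain gene passed the threshold between genotypes when all 6 arrays were used. Of 85 tested members, 0 had a limma adjusted p under 0.05, beside 0% (0 of 10916) of all tested genes, and the members' adjusted p ran from 0.329 to 0.999. The members' differences were small. Their median size was 0.09 with a median SE of 0.11, against 0.13 and 0.14 over all tested genes. On this scale 57 of the 85 lay below control and 28 above, with a median of -0.06, while 51.7% of all tested genes lay below control with a median of -0.01. The direction of that count depends on the scaling between arrays. With the deposited scaling, which moves the median of all genes from -0.01 to 0.14, 19 of 85 members lay below control and their median was 0.09; with arrays set to equal medians 43 did. Under both the quantile and the deposited scaling the members' median lay below that of all genes.

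At an unadjusted limma p under 0.05 there were 4 members, all below control, beside 4.69% of all tested genes in that direction and 10.5% in either. On the chosen probe sets no member had all 3 knockout values above its 3 control values, beside 9.23% of all genes. The same 4 genes were the ones whose 3 knockout values all lay under their 3 control values on the normalised scale, beside 7.76%. They were Uqcrb of complex III, the assembly factor Sdhaf2 of complex II, and Ndufb7 and Ndufa1 of complex I. As a share of 85, such a count is near or under that of all genes. On the deposited signal the groups overlapped in all 4 genes, since knockout 3 lay above at least 1 control. For Uqcrb, Sdhaf2 and Ndufb7 a second probe set of the gene gave 0.05 ± 0.11, 0.04 ± 0.18 and 0.07 ± 0.12, so the probe sets of these genes disagree in sign, and Ndufa1 has only 1. Further probe sets above the level filter also parted the groups on the normalised scale, in both directions. Those of Uqcrh, Cox6c, Ndufc2, Sdhc and Ndufa12 had all knockouts above all controls. Those of Atp5a1, Ndufb5 and Sdha had all knockouts below.

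**Figure D1:**
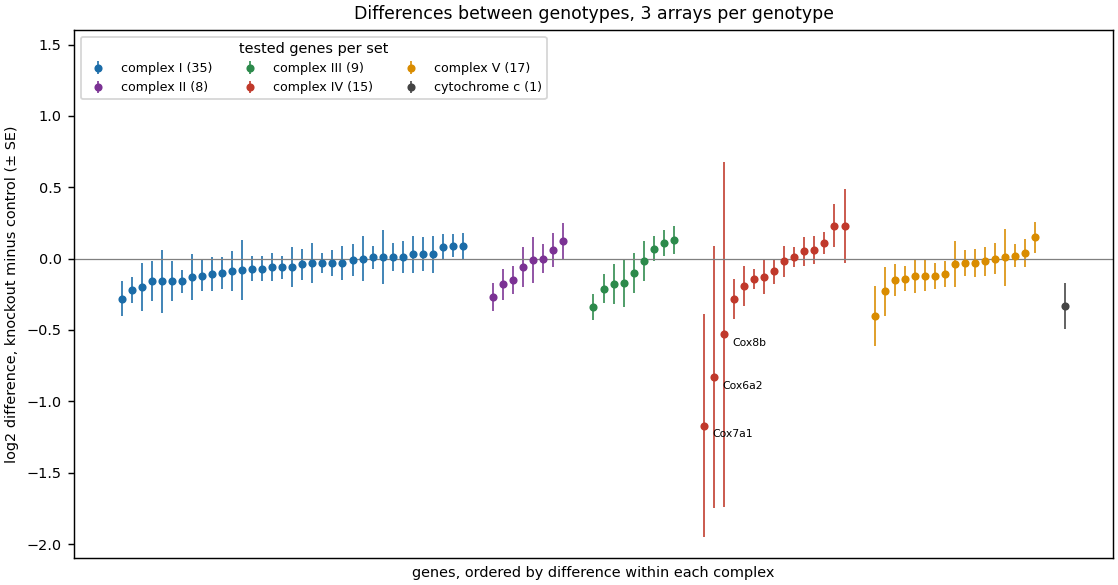
Difference between genotypes for the 85 tested genes of the respiratory chain, grouped by complex. Each point is 1 gene's log2 difference, knockout minus control, and each bar is ± 1 SE of the limma fit over 3 arrays per genotype. All but the muscle isoforms Cox7a1, Cox6a2 and Cox8b lie between -0.40 and 0.23, and the SE of those isoforms runs from 0.78 to 1.21.

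The widest variation among all members was that of the 3 muscle isoforms of complex IV, and it ran between control arrays rather than between genotypes. Cox7a1, the muscle form of subunit VIIa, stood at 8.06, 5.21 and 8.08 on the control arrays 1, 2 and 3 and at 5.58, 5.43 and 6.84 on the knockout arrays 1, 2 and 3, the order kept below. Cox6a2, the muscle form of subunit VIa, stood at 9.13, 5.78 and 9.09 in controls and 6.41, 6.79 and 8.29 in knockouts. Cox8b, the muscle form of subunit VIII, stood at 8.54, 4.09 and 8.92 in controls and 6.19, 6.00 and 7.76 in knockouts. In all 3 genes control 2 was the lowest of the 6 arrays, controls 1 and 3 were the highest, and knockout 3 was the highest of its group, so the groups overlapped. Control 2 had a deposited signal of 1.0 for Cox8b, 19.6 for Cox7a1 and 35.7 for Cox6a2, where controls 1 and 3 had 371.0 and 408.2 for Cox8b. The mean of controls 1 and 3 lay above control 2 by 4.64 for Cox8b, 3.33 for Cox6a2 and 2.87 for Cox7a1, or 24.9, 10.0 and 7.29-fold on the log2(signal + 16) scale. The signals of control 2 lie below or near the array medians, so these sizes depend on the 16 added and understate the ratio of the signals.

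The difference between genotypes was -1.17 ± 0.78 for Cox7a1 (limma adjusted p = 0.625), -0.83 ± 0.92 for Cox6a2 (limma adjusted p = 0.785) and -0.53 ± 1.21 for Cox8b (limma adjusted p = 0.903). In size each is smaller than the standard deviation among the controls, which was 1.65, 1.92 and 2.69 in that order. Among the knockouts it was 0.78, 0.99 and 0.96, which the difference of Cox7a1 exceeds and those of Cox6a2 and Cox8b do not. A second Cox6a2 probe set gave -1.08 ± 0.81. For Cox8b the sign itself was unsettled: the difference was 0.25 with 1 added to the signal in place of 16, 0.14 without control 1 and 0.35 without control 3.

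Skeletal muscle markers moved over the arrays beside these isoforms. All 14 tested markers were lowest in control 2, and their mean level after centring each gene over the arrays was 2.06, -3.35 and 1.87 in controls and -0.68, -0.70 and 0.81 in knockouts, where the 3 muscle isoforms of complex IV had 1.56, -1.98 and 1.69 in controls and -0.95, -0.94 and 0.62 in knockouts. Acta1, skeletal muscle alpha-actin, had a deposited signal of 7668.6, 24.8 and 6379.8 in controls and 859.6, 1032.5 and 3646.8 in knockouts. Myl1 and Mylpf, light chains of fast muscle myosin, had 41.4 and 20.1 in control 2 and at least 6393.4 in controls 1 and 3. Control 2 thus read Acta1 and Mylpf within the range of the array medians, and the other 5 arrays read them far above it. Whether the muscle isoforms of complex IV and these markers came from the same cells was not tested.

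**Figure D2:**
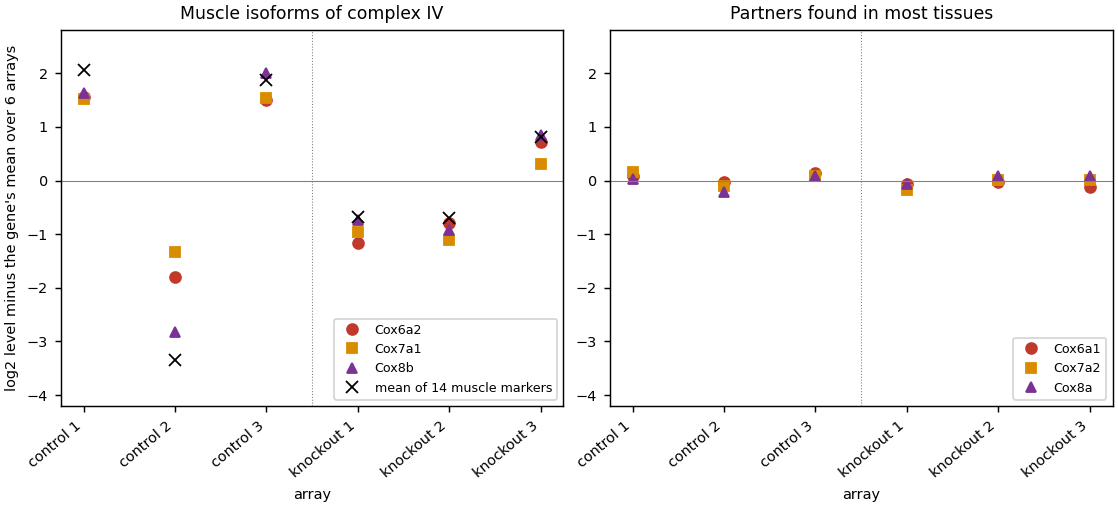
Levels of the muscle isoforms of complex IV and their widely expressed partners on each of the 6 arrays. The y axis is the log2 level of each gene minus its mean over the arrays, and the mean of the 14 skeletal muscle markers is drawn with the muscle isoforms. The isoforms and the markers are lowest in control 2 and highest in controls 1 and 3, while the partners Cox6a1, Cox7a2 and Cox8a stay within a narrow band.

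The widely expressed partners varied far less. Cox6a1 stood at 12.92, 12.82 and 12.99 in controls and 12.77, 12.82 and 12.73 in knockouts, a difference of -0.14 ± 0.07 (limma adjusted p = 0.535). Cox7a2 stood at 12.33, 12.07 and 12.26 in controls and 12.00, 12.18 and 12.19 in knockouts, a difference of -0.09 ± 0.09. Cox8a stood at 10.62, 10.38 and 10.66 in controls and 10.52, 10.66 and 10.67 in knockouts, a difference of 0.06 ± 0.10. Control 2 was again the lowest control for each of them, by 0.14, 0.23 and 0.26 under the mean of controls 1 and 3, and the groups overlapped in all 3. With the deposited scaling the differences of Cox6a1 and Cox7a2 turned to 0.08 each.

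A ratio of isoform to partner within an array is less open to the scaling of the array; with the deposited scaling the 3 ratio differences that follow were -0.76, -1.12 and -0.63. Each muscle isoform minus its partner differed between genotypes by -0.70 for Cox6a2 over Cox6a1, -1.08 for Cox7a1 over Cox7a2 and -0.60 for Cox8b over Cox8a. The standard deviations (SD) of these ratios were 1.84, 1.52 and 2.53 among the 3 controls and 1.03, 0.73 and 0.93 among the 3 knockouts, so each difference was smaller than the spread of the controls. Exact 2-sided permutation tests over the arrays gave p = 0.8, 0.4 and 0.8, where 3 against 3 cannot go below 0.1, and adjusted over the 5 pairs tested all were 1. The testis-enriched Cox6b2 over Cox6b1 differed by 0.26 (SD 0.42 in controls and 0.21 in knockouts; exact permutation p = 0.3), and Ndufa4l2, a paralog known to be induced by hypoxia, over Ndufa4 by -0.03 (SD 0.33 and 0.35; exact permutation p = 1). The Cox8b ratio was 0.18 with 1 added to the signal, 0.04 without control 1 and 0.23 without control 3, and that of Ndufa4l2 was 0.14 without control 3, 0.08 without knockout 2 and 0.07 without knockout 3.

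Promoter sequences are shown for these isoforms and partners so that a tissue-restricted and a widely expressed form of the same subunit can be read side by side. Each window is RefSeq's, on the GRCm38.p6 build, from 250 bases before to 50 bases after the annotated start, printed 5′ to 3′ on the gene's strand. In the 2 muscle isoforms capitals mark the E-box CANNTG, the motif bound by myogenic and other basic helix-loop-helix factors; in the 3 partners capitals mark the ETS site CCGGAAG, which GABP can bind, and the NRF1 site, GCGC and TGCGC with 1 base between them, on either strand. Cox7a1 has 1 E-box and Cox8b has 2, and the partners Cox7a2 and Cox8a also have 1 each, left in lower case, so the E-box does not set the forms apart. Cox8a has 2 ETS sites, Cox6a1 has 1 ETS site and 2 NRF1 sites, and the windows of Cox7a2, Cox7a1 and Cox8b hold neither.
Cox7a1, chr7:30183921-30184220, forward strand: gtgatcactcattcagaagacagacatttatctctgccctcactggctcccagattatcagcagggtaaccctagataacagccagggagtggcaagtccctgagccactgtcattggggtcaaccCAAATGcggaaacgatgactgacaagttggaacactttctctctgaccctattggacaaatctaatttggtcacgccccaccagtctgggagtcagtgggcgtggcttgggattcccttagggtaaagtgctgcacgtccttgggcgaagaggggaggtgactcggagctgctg
Cox8b, chr7:140900397-140900696, reverse strand: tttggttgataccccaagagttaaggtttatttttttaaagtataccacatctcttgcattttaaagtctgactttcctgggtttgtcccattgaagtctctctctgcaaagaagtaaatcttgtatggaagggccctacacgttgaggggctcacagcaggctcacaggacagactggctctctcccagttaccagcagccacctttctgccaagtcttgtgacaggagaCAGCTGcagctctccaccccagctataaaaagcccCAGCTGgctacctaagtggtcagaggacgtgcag
Cox6a1, chr5:115348909-115349208, reverse strand: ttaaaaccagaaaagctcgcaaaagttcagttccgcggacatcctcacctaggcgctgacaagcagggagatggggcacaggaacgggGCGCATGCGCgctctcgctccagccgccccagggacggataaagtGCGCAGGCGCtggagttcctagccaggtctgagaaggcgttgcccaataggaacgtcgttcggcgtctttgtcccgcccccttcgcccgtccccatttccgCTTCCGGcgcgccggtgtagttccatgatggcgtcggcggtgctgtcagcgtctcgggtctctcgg
Cox7a2, chr9:79759804-79760103, reverse strand: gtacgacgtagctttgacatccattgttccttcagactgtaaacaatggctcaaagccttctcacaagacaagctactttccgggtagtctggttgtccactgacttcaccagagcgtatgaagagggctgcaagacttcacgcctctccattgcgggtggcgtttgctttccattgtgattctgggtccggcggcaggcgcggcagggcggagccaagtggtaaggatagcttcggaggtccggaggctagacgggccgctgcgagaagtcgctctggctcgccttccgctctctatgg
Cox8a, chr19:7217567-7217866, reverse strand: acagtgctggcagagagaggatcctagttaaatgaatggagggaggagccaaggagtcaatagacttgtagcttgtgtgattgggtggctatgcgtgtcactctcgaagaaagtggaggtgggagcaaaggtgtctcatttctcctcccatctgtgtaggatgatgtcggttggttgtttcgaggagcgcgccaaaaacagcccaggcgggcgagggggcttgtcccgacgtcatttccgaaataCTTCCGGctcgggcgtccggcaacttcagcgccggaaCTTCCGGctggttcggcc

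Of the 88 members, 72 have a window in the RefSeq table, 77 windows in all, which were set against 32851 windows of all genes for motifs on both strands. The ETS site lay in 26.0% of member windows against 8.86% of all windows, and the NRF1 site in 23.4% against 4.6%. By complex, the ETS site lay in 71.4% of 7 complex II windows and 11.8% of 34 complex I windows. The E-box lay in 66.2% of member windows and 72.3% of all, and the site of the estrogen-related receptors, TNAAGGTCA, in 3.9% and 1.28%. The full estrogen response element, GGTCA and TGACC with 3 bases between them, lay in 0 of the 77 member windows and in 0.07% of all, and the MEF2 site in 0 and 3.19%. Member windows other than those of the muscle isoforms had a median GC content of 59.0% against 52.7% over all windows, and GC content was not matched in these shares. These are matches of letters in a short window and show no binding.

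In complex I, which holds the NADH-oxidising arm and a membrane arm that pumps protons, 24 of 35 tested members lay below control and 11 above, with a median of -0.06 and a range from -0.28 to 0.09. Ndufb7, a membrane-arm subunit facing the intermembrane space, stood at 10.11, 9.81 and 10.09 in controls and 9.57, 9.81 and 9.79 in knockouts, a difference of -0.28 ± 0.12 (limma adjusted p = 0.467). Control 2 and knockout 2 were equal to 2 decimals, so the groups barely parted on the normalised scale. Ndufa1, a small membrane-arm subunit, stood at 12.21, 12.29 and 12.00 in controls and 11.89, 11.97 and 11.98 in knockouts, a difference of -0.22 ± 0.09 (limma adjusted p = 0.472). Among the controls it was highest, not lowest, in control 2. Ndufv3, a flavoprotein-arm subunit, stood at 10.53, 10.37 and 10.49 in controls and 10.30, 10.38 and 10.24 in knockouts, a difference of -0.16 ± 0.08. Ndufab1, the mitochondrial acyl carrier protein, which also serves fatty acid synthesis, stood at 10.22, 9.58 and 10.08 in controls and 9.60, 9.81 and 9.87 in knockouts, a difference of -0.20 ± 0.17, with control 2 the lowest array. In both Ndufv3 and Ndufab1 the groups overlapped.

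Ndufa4, filed by name with complex I and now placed in complex IV, stood at 10.66, 10.32 and 10.54 in controls and 10.37, 10.62 and 10.62 in knockouts, a difference of 0.03 ± 0.12. Its paralog Ndufa4l2 stood at 6.68, 6.67 and 7.22 in controls and 7.10, 6.74 and 6.75 in knockouts, a difference of 0.01 ± 0.19. Neither genotype was set apart in either gene. The dim Ndufb4, below the level filter and so not tested, had levels of 4.57, 4.57 and 4.6 in controls and 4.96, 4.91 and 4.82 in knockouts, with deposited signals of 6.9 to 8.1 and 13 to 15.7.

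Of the mitochondrially encoded subunits, 1 had a probe set of its own, ND5 of complex I, and it differed by more than any nuclear complex I gene tested. ND5 is no member by the naming rule and was on a list of the pathway's other genes. Its levels were 12.70, 12.22 and 12.55 in controls and 11.94, 11.86 and 11.98 in knockouts, with all knockouts under all controls on the normalised scale. The deposited signal of knockout 3, 4864.8, however lay above that of control 2, 4485.9. The group means were 12.49 ± 0.25 and 11.93 ± 0.06 (SD, n = 3 each), a difference of -0.56 ± 0.12, or 1.48-fold, with a limma adjusted p of 0.248 over all genes. It did not pass the threshold with all arrays. Without control 2, an array singled out after its values were seen, the difference was -0.70 ± 0.08 with a limma adjusted p of 0.0102. In that fit 2.73% of all tested genes passed the threshold. With the deposited scaling and all arrays the ND5 difference was -0.40.

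Complex II, the succinate dehydrogenase shared with the tricarboxylic acid cycle, has 4 subunits and 4 assembly factors among the members. Below control lay 5 of the 8, with a median of -0.03, or -0.10 over the 4 subunits alone. Sdha, the flavoprotein that oxidises succinate, stood at 9.52, 9.41 and 9.70 in controls and 9.42, 9.37 and 9.40 in knockouts, a difference of -0.15 ± 0.10 (limma adjusted p = 0.622), which became 0.01 with the deposited scaling. Sdhb, the iron-sulphur subunit, stood at 10.32, 10.02 and 10.22 in controls and 9.91, 10.15 and 9.97 in knockouts, a difference of -0.18 ± 0.11. The groups overlapped in both. Sdhaf2, which helps attach the flavin cofactor to Sdha, stood at 7.81, 7.73 and 7.91 in controls and 7.59, 7.56 and 7.49 in knockouts. The difference was -0.27 ± 0.10 (limma adjusted p = 0.416) with no overlap on this probe set and scale. Its deposited signals did overlap, with knockout 3 at 208.2 and control 2 at 181.8. Sdhaf1, which serves the iron-sulphur clusters of Sdhb, stood at 7.66, 7.46 and 7.28 in controls and 7.61, 7.68 and 7.48 in knockouts, a difference of 0.12 ± 0.13.

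In complex III, 6 of 9 members lay below control, with a median of -0.10 and a range from -0.34 to 0.13. Uqcrb, the ubiquinone-binding subunit, had the smallest p of all members. It stood at 13.10, 12.86 and 13.17 in controls and 12.64, 12.68 and 12.79 in knockouts, a difference of -0.34 ± 0.09 (limma adjusted p = 0.329). All 3 knockouts lay under all 3 controls on the normalised scale, though the deposited signal of knockout 3, 8308.0, lay above those of controls 2 and 3, 6827.7 and 7925.3. Uqcrc2, a core subunit, stood at 10.75, 10.64 and 10.41 in controls and 10.33, 10.44 and 10.41 in knockouts, a difference of -0.21 ± 0.10. Uqcrq, a small subunit, stood at 10.28, 9.98 and 10.42 in controls and 9.86, 10.17 and 10.11 in knockouts, a difference of -0.18 ± 0.14. Uqcrh, the hinge protein that helps cytochrome c dock, went the other way, at 11.48, 11.25 and 11.46 in controls and 11.44, 11.51 and 11.59 in knockouts, a difference of 0.11 ± 0.09. Those 3 genes had overlapping groups, though a second Uqcrh probe set gave 0.21 ± 0.08 with no overlap.

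Cytochrome c, the carrier between complexes III and IV and a trigger of apoptosis when released, is encoded by Cycs in somatic cells. Cycs stood at 12.01, 11.37 and 11.81 in controls and 11.33, 11.36 and 11.51 in knockouts, a difference of -0.33 ± 0.16 (limma adjusted p = 0.516). Controls 1 and 3 were above all other arrays, and control 2 lay within the knockouts. Of the 3 other Cycs probe sets, those above the level filter gave -0.21 ± 0.21 and -0.33 ± 0.21, both below 0. The third, dim at a mean level of 4.36 and below that filter, gave -0.19 ± 0.14.

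Complex IV apart from the muscle isoforms was split evenly. With those isoforms 9 of 15 tested members lay below control, with a median of -0.09; without them 6 of 12 did, with a median of -0.01. Cox5b, a subunit on the matrix side, stood at 12.05, 11.70 and 12.25 in controls and 11.62, 11.82 and 11.70 in knockouts, a difference of -0.28 ± 0.14 (limma adjusted p = 0.518). Its groups overlapped through control 2. The other Cox5b probe sets above the level filter gave -0.15 ± 0.12, -0.20 ± 0.13 and 0.04 ± 0.11. The mean of all its probe sets, dim ones included, gave -0.08. Cox6b1, a subunit at the dimer interface, stood at 11.93, 11.54 and 11.88 in controls and 11.68, 11.79 and 11.81 in knockouts, a difference of -0.02 ± 0.11, and Cox6b2 stood at 6.19, 6.5 and 6.07 in controls and 6.64, 6.46 and 6.37 in knockouts, a difference of 0.23 ± 0.15. Cox6b2 was the member with the highest relative level in control 2, where the mean of controls 1 and 3 minus control 2 was -0.37. The difference of Cox6b1 turned to 0.13 with the deposited scaling and to 0.03 with equal array medians. Cox4i1, the widely expressed form of subunit IV, differed by 0.01 ± 0.07.

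In complex V, 12 of 17 members lay below control and 5 above, with a median of -0.04 and a range from -0.40 to 0.15. Atp5md, a small membrane subunit tied to the dimer of the synthase, had the largest difference, at 11.21, 10.93 and 10.58 in controls and 10.17, 10.49 and 10.86 in knockouts, or -0.40 ± 0.21 (limma adjusted p = 0.549). The arrays spread by 0.32 (SD) among controls and 0.35 among knockouts, and the groups overlapped. Atp5g1, which encodes subunit c of the rotor ring, stood at 10.50, 10.01 and 10.63 in controls and 9.97, 10.31 and 10.15 in knockouts, a difference of -0.23 ± 0.17. Atp5j, a stalk subunit, stood at 11.30, 11.08 and 11.28 in controls and 11.02, 11.10 and 11.13 in knockouts, a difference of -0.14 ± 0.09 that became 0.02 with the deposited scaling. Atp5mpl, a small membrane subunit, stood at 10.44, 10.29 and 10.52 in controls and 10.40, 10.56 and 10.76 in knockouts, a difference of 0.15 ± 0.11. Groups overlapped in these 3 as well. The catalytic subunit Atp5b differed by 0.01 ± 0.20.

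Most members had 1 pattern in common over the control arrays: control 2 was the lowest. It was lowest of the 3 controls in 69 of 85 members (81.2%) against 35.9% of all tested genes, and lowest of all 6 arrays in 44 (51.8%) against 21.9%. Control 2 was also the lowest control in 100% of tested skeletal muscle, 81.8% of pericyte and smooth muscle, 71.4% of chondrocyte and 63.6% of osteocyte markers. For osteoclast and endothelial markers this share was 28.6% each, and for leukocyte markers 0%. In the lists of the pathway's other genes, ND5 aside, it ran from 46.7% (glycolysis) to 68.8% (coenzyme Q and cytochrome c maturation). Control 2 was the lowest control in 27 of 35 members of complex I, 6 of 8 of complex II, 8 of 9 of complex III, 13 of 15 of complex IV and 14 of 17 of complex V. These counts are on the normalised scale and depend on the scaling. On the deposited signal control 3 was the lowest control in some of these genes. For Sdhaf4, Sdhc and Atp5a1 it had 375.3, 251.8 and 1702.1, and control 2 had 391.1, 258.2 and 1798.7. The mean of controls 1 and 3 exceeded control 2 by a median of 0.22 over the members and -0.01 over all tested genes. By complex this median was 0.21, 0.15, 0.28, 0.26 and 0.21 for complexes I to V. After the muscle isoforms the gaps were widest for Cox7c at 0.81, whose probe set is dim, for the complex I subunit Ndufa5 at 0.77, for Atp5b at 0.76 and for Cyc1, the haem-bearing cytochrome of complex III, at 0.61.

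Among the other arrays, knockout 1 was the lowest in 26 members (30.6%) against 14% of all genes, and control 1 the highest in 41 (48.2%) against 21.1%. The mean centred level of the members without the muscle isoforms was 0.14, -0.13 and 0.08 in controls 1, 2 and 3 and -0.12, 0.01 and 0.02 in knockouts 1, 2 and 3. Control 2 and knockout 1 thus stood side by side at the low end, and the controls spanned more than the distance between the genotypes. The SD was larger among controls than among knockouts in 61 of 85 members (71.8%), close to the 67.6% of all tested genes, with medians of 0.16 and 0.10. Muscle markers were also low in control 2, as given above. The part of muscle RNA in the members' levels was not tested.

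**Figure D3:**
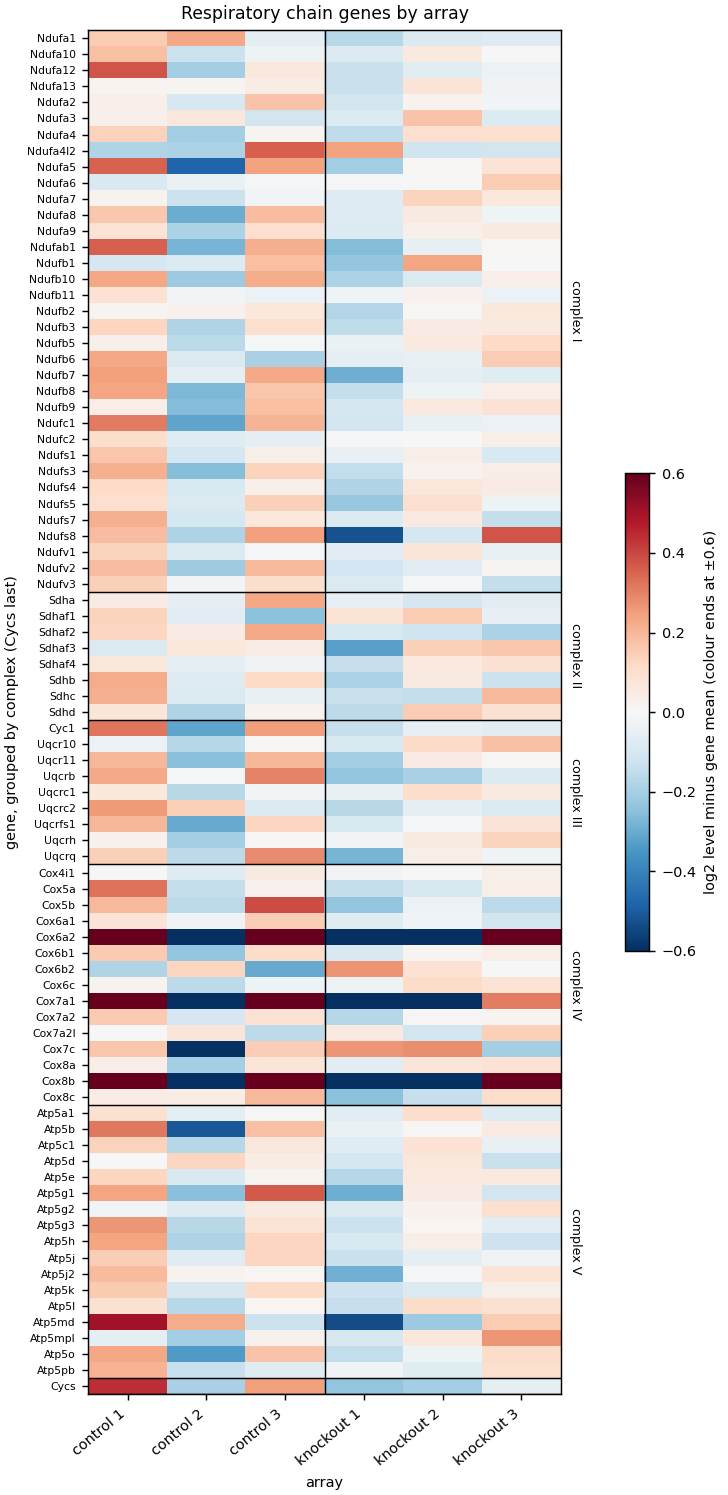
Heat map of the 85 tested respiratory chain genes, 1 row per gene grouped by complex, on the 3 control and 3 knockout arrays. Colour is the log2 level minus the gene's mean over the 6 arrays, with colour ends at -0.6 and 0.6. The column of control 2 is low through most rows of every complex, where it is the lowest control in 69 of 85 genes.

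Control 2 decided how many members passed the threshold. It was singled out after its values were seen. Without it, 3 members fell past the limma threshold, 3.53% of 85 beside 2.73% of all tested genes, made up of 1.94% that fell and 0.788% that rose. Uqcrb fell by 0.43 ± 0.07 on the log2 scale (limma adjusted p = 0.0333), Cox7a1 fell by 2.13 ± 0.39 (limma adjusted p = 0.0370) and Cycs fell by 0.51 ± 0.10 (limma adjusted p = 0.0400), with 2 controls against 3 knockouts. Cox7a1 fell beside the skeletal muscle markers, of which all 14 lay below control without control 2, 5 past the threshold, with a median of -2.37. In the same fit all 11 pericyte and smooth muscle markers lay below control, 6 past the threshold, with a median of -0.79, and of 14 chondrocyte markers 5 were past it above control, with a median of 1.05. Of 11 osteocyte markers 8 lay below control, 2 past the threshold, with a median of -0.13. The part of these cells in the members' fall was not tested. Just short of the threshold stood Cox5b at -0.43 ± 0.10 (limma adjusted p = 0.0723), Cox8b at -2.08 ± 0.48 (limma adjusted p = 0.0805), Cyc1 at -0.37 ± 0.09 (limma adjusted p = 0.0837) and Cox6a2 at -1.94 ± 0.48 (limma adjusted p = 0.0962).

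Without control 2, 72 of the 85 members lay below control and 13 above, with a median of -0.14, where 51.2% of all tested genes lay below and their median was -0.01. The groups did not overlap in 39 members below control, beside 18.2% of all genes, and in 1 above, Cox6b2, beside 16.1%. At an unadjusted limma p under 0.05 were 26 members below control, beside 8.90% of all genes. Since control 2 was the lowest control in most members, leaving it out raises their control means, so these counts restate that pattern and are no separate support for a difference between genotypes. No other left-out array gave a member past the threshold. Leaving out control 1 put 41 of 85 members below control with a median of 0.00, and leaving out knockout 1 put 47 below, also with a median of 0.00.

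**Figure D4:**
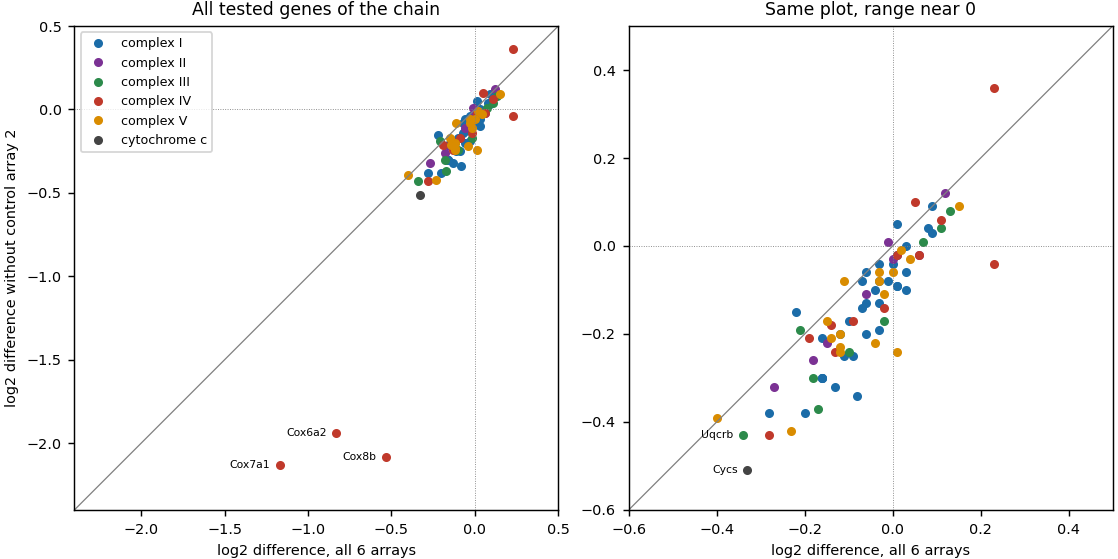
Log2 difference, knockout minus control, of each tested respiratory chain gene with all 6 arrays on the x axis and without control 2 on the y axis. The right panel repeats the range near 0. Points under the diagonal have a lower difference without control 2, and the labelled genes include Uqcrb, Cox7a1 and Cycs, the 3 past the limma threshold without that array.

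Genes that serve the chain were read from lists of other members of the pathway, and none passed the threshold with all arrays. Of 38 tested assembly factors, 21 lay below control, with a median of -0.04. Coa5, an assembly factor of complex IV, stood at 8.69, 8.67 and 8.68 in controls and 8.14, 8.35 and 8.44 in knockouts, a difference of -0.37 ± 0.11 (limma adjusted p = 0.338), and Atpaf1, which assembles the catalytic part of complex V, stood at 6.93, 6.92 and 6.88 in controls and 6.19, 6.76 and 6.56 in knockouts, a difference of -0.40 ± 0.16 (limma adjusted p = 0.440). In both genes the controls lay close together on the normalised scale, control 2 included, and above all knockouts. The deposited signals overlapped. For Coa5 knockout 3 had 418.4, above the highest control at 412.7. For Atpaf1 knockout 3 had 100.7, above controls 2 and 3 at 96.1 and 88.6. Of the 38 assembly factors, 5 had all knockouts below all controls on the normalised scale, beside 7.76% of all tested genes.

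Of 18 tested genes of the tricarboxylic acid cycle, 14 lay below control, with a median of -0.12. Citrate synthase, Cs, stood at 10.44, 9.98 and 10.24 in controls and 9.92, 10.04 and 9.94 in knockouts, a difference of -0.25 ± 0.12 (limma adjusted p = 0.519), and Sucla2, a succinyl-CoA synthetase subunit, differed by -0.26 ± 0.16. Control 2 lay among the knockouts in Cs, as it did in Cycs. Glycolysis had 8 of 15 genes above control. Ldha, which turns pyruvate into lactate, stood at 11.08, 10.64 and 11.09 in controls and 11.29, 11.48 and 11.14 in knockouts, a difference of 0.37 ± 0.15 (limma adjusted p = 0.442), and Hk1, a hexokinase, differed by -0.34 ± 0.16.

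Of 16 tested regulators of mitochondrial biogenesis, 9 lay above control, with a median of 0.03. Nrf1, whose protein binds the NRF1 site, stood at 6.27, 6.15 and 5.96 in controls and 6.43, 6.59 and 6.47 in knockouts, a difference of 0.37 ± 0.13 (limma adjusted p = 0.409). Gabpa, the DNA-binding subunit of GABP, stood at 8.88, 8.82 and 8.90 in controls and 9.30, 9.0 and 9.01 in knockouts, a difference of 0.24 ± 0.11 (limma adjusted p = 0.491). All knockouts lay above all controls in both on the normalised scale, as in 4 of the 16, beside 9.23% of all tested genes. Both were named for the smallest p of their list, which favours groups that do not overlap. Of 16 tested genes around coenzyme Q and cytochrome c maturation, 8 lay above control. Gpd2, which feeds electrons of glycerol phosphate to coenzyme Q, stood at 6.33, 6.5 and 6.2 in controls and 7.03, 7.0 and 7.04 in knockouts, a difference of 0.68 ± 0.12 (limma adjusted p = 0.183), and Dhodh, the pyrimidine enzyme that also reduces coenzyme Q, differed by 0.31 ± 0.11 (limma adjusted p = 0.416). Gpd2 and Dhodh, named by the same rule, had no overlap between the groups on the normalised scale. They were the only 2 such genes of the 16, beside 9.23% of all tested genes in that direction.

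Of 13 tested carriers and outer membrane genes, 7 lay below control, with a median of 0.00. Tomm20, an import receptor, differed by 0.19 ± 0.09 and Vdac1, the outer membrane channel, by -0.30 ± 0.16. Without control 2, Vdac1 fell by 0.48 ± 0.09 (limma adjusted p = 0.0360), as did the muscle-enriched mitochondrial creatine kinase Ckmt2, by 1.43 ± 0.25 (limma adjusted p = 0.0346), and the muscle enolase Eno3 of glycolysis, by 1.62 ± 0.29 (limma adjusted p = 0.0341). Of the genes of the tricarboxylic acid cycle 16 of 18 then lay below control, with 0 past the limma threshold.

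Several probe sets of a gene did not always give 1 sign. The 88 members have 180 probe sets, and 52 members have at least 2. Among the 44 members with at least 2 probe sets above the level limit, all such probe sets had the same sign in 24. The chosen probe set ended in _s_at for 13 members and in _x_at for 3, forms that can detect transcripts of more than 1 gene, so those values may mix related copies, and in _a_at for 30, a form that detects several transcripts of the same gene.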

How the data were processed

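The authors deposited 1 intensity per probe set and array on a linear scale, from biotin-labelled RNA of 3 control and 3 knockout samples. The submitters' processing notes name GCOS, without a version; how background was corrected, probes summarised and arrays scaled is not stated in the sources used here. Of 45101 probe sets, 34945 name 1 gene by the platform annotation, 932 name several and 9160 none; 64 are controls. Of the single-gene probe sets 34741 matched RefSeq's gene table and took its symbol.

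From these, log2(signal + 16) was computed, so folds of dim genes are understated, and arrays were quantile normalised. Each of 18194 genes was read from its brightest probe set on average; the dimmest 40%, below 5.37 on the log2 scale, were dropped, and 10916 genes entered limma 3.58.1 (R 4.3.3; lmFit, eBayes with trend, no covariate, 2-sided, Benjamini-Hochberg at 0.05). The limma fit was tested on simulated levels with noise drawn independently for each gene and array. That simulation held no shift shared by many genes of an array. Normalisation, probe set choice and the permutation tests were not part of it. Isoform ratios went through exact permutation tests. Alternatives changed scaling, pseudocount, filter, probe set choice, array weights, replicate block, grouping and left-out arrays, each refitted on the whole table. The number of arrays limits the precision.

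Members and lists were chosen with earlier results of these data known. Values per array are given for members of isoform pairs, the 4 members of each complex with the smallest p, members without overlap and a difference beyond 0.3, and Cycs, which with Atp5b, Ndufa5, Cyc1, Cox4i1, Cox7c and Ndufb4 was named after its values were seen. Of other genes the rule took Esr1, 3 muscle markers and up to 2 per list by smallest p; Eno3 and Ckmt2 were named after their values were seen.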

Additional observations from a re-analysis of the deposited data

How the results depend on the processing

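The count of 0 members past the limma threshold held under every alternative but 1: leaving out 1 array in turn gave 0 to 3, the 3 coming without control 2. The medians of complexes I to V turned to 0.10, 0.11, 0.05, 0.08 and 0.12 with the deposited scaling, beside 0.14 for all genes, and 30 genes of all tested, 0 of them members, were then past the threshold; with equal array medians those of II and V were 0.01 and 0.02. With 1 array left out the medians ran from -0.13 to 0.00 for complex I, -0.12 to 0.04 for II, -0.19 to -0.02 for III, -0.17 to 0.01 for IV and -0.17 to 0.01 for V. The Cox8b ratio turned to 0.18 with a pseudocount of 1 and ran from -2.05 to 0.23 with 1 array left out, and the Ndufa4l2 ratio from -0.23 to 0.14. The differences of Atp5j, Cox6a1, Cox6b1, Cox7a2 and Sdha turned to 0.02, 0.08, 0.13, 0.08 and 0.01 with the deposited scaling, Cox6b1 to 0.03 with equal array medians, Cox4i1 to 0.00 and Ndufa4l2 to -0.05 with array weights, and Cox8b to 0.25 with a pseudocount of 1. With 1 array left out, Cox4i1 ran from -0.02 to 0.04, Cox6b1 from -0.14 to 0.05, Cox8a from -0.02 to 0.12, Cox8b from -2.08 to 0.35, Ndufa4 from -0.06 to 0.11 and Ndufa4l2 from -0.11 to 0.19. The cause of these turns was not tested. Same-numbered arrays correlated at -0.38, 0.097 and -0.041 in their deviations from the group means. With 3 arrays per group these values cannot tell whether the numbers pair the samples. With the replicate block 0 members passed and the Cox7a1 ratio was -1.08. Without the muscle isoforms, chosen after seeing the data, the median of complex IV was -0.01. With 60% of genes filtered, 2 of 30 named genes had no value.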
